A study of Mus musculus with 2 samples.

Results

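The genes described here encode the subunits of the oxidative phosphorylation machinery that are made from the nuclear genome: complexes I to IV of the respiratory chain and the ATP synthase, complex V. They were chosen by symbol, as genes named Nduf (letters a, b, c, s or v and a number), Sdha to Sdhd, Uqcr, Cyc1, Cox4 to Cox8 with a letter, or Atp5, that have at least 1 protein-coding transcript. The rule found 86 gene entries of 55536 in the annotation, with 85 distinct symbols, since Atp5o has a second identifier. Non-coding genes whose symbols match the same pattern, 12 in number, were not members.

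The cells were primary macrophages grown from the bone marrow of C57BL/6J mice. They had received lipid A at 100 ng/ml for a period of 120 minutes. Lipid A is the part of bacterial lipopolysaccharide that the receptor Tlr4 senses. The free-text label names lipid A, while the treatment field names lipoprotein A and calls it a protein, so the labels disagree on the agent. There was 1 group of 2 libraries of polyadenylated RNA, numbered replicates 1 and 2, from 1 µg of RNA each. Both carry the same donor record, age and sex were not collected, and separate animals or cultures are not stated. The gene tables held 33272581 and 50266403 estimated counts over mouse genes. With 1 group there was no unstimulated control, so every value is a level in stimulated cells and no response was measured, and no p-value could be given. In bulk RNA, fewer cells of a type and less RNA per cell cannot be told apart.

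Oxidative phosphorylation passes electrons from NADH (complex I) and succinate (complex II) through complex III and cytochrome c to oxygen at complex IV. The protons pumped on the way drive the ATP synthase. A few core subunits of complexes I, III, IV and V are encoded by mitochondrial DNA, and all other subunits, and the whole of complex II, are made from nuclear genes. In macrophages, strong inflammatory stimuli are known to shift energy use from this machinery towards glycolysis over hours.

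Nearly the whole widely expressed machinery was transcribed, and at high levels. Of the 86 entries, 78 stood at 1 TPM or more in both replicates, where TPM is abundance per transcript length, scaled to the same total in each library. For comparison, 43.8% of 21901 genes with a protein-coding transcript passed the same limit. The median member that passed stood at 109 TPM, against 14.1 TPM for the median of all 10285 genes that passed, and the 2 replicates gave medians of 115 and 101 TPM. At 100 TPM or more in both replicates were 39 members, or 50% of the 78 that passed, beside 11.1% of all expressed genes. Ranked by mean TPM, 36 members lay above the 90th percentile of expressed genes. Together the members made up 13527 TPM in replicate 1 and 11999 TPM in replicate 2, which is 1.35% and 1.20% of all TPM but only 0.459% and 0.398% of counts. The share of counts is smaller because these transcripts are short: the leading transcript of a member had a median length of 709 bases, against 2635 for expressed coding genes. Under 1000 bases were 55 members, or 70.5%, beside 11.1% of expressed coding genes. Across the 78 members, shorter transcripts had higher TPM (Spearman rho −0.40 by RSEM and −0.30 by kallisto, beside −0.20 over all expressed coding genes by RSEM, a description with length in both measures).

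**Figure D1:**
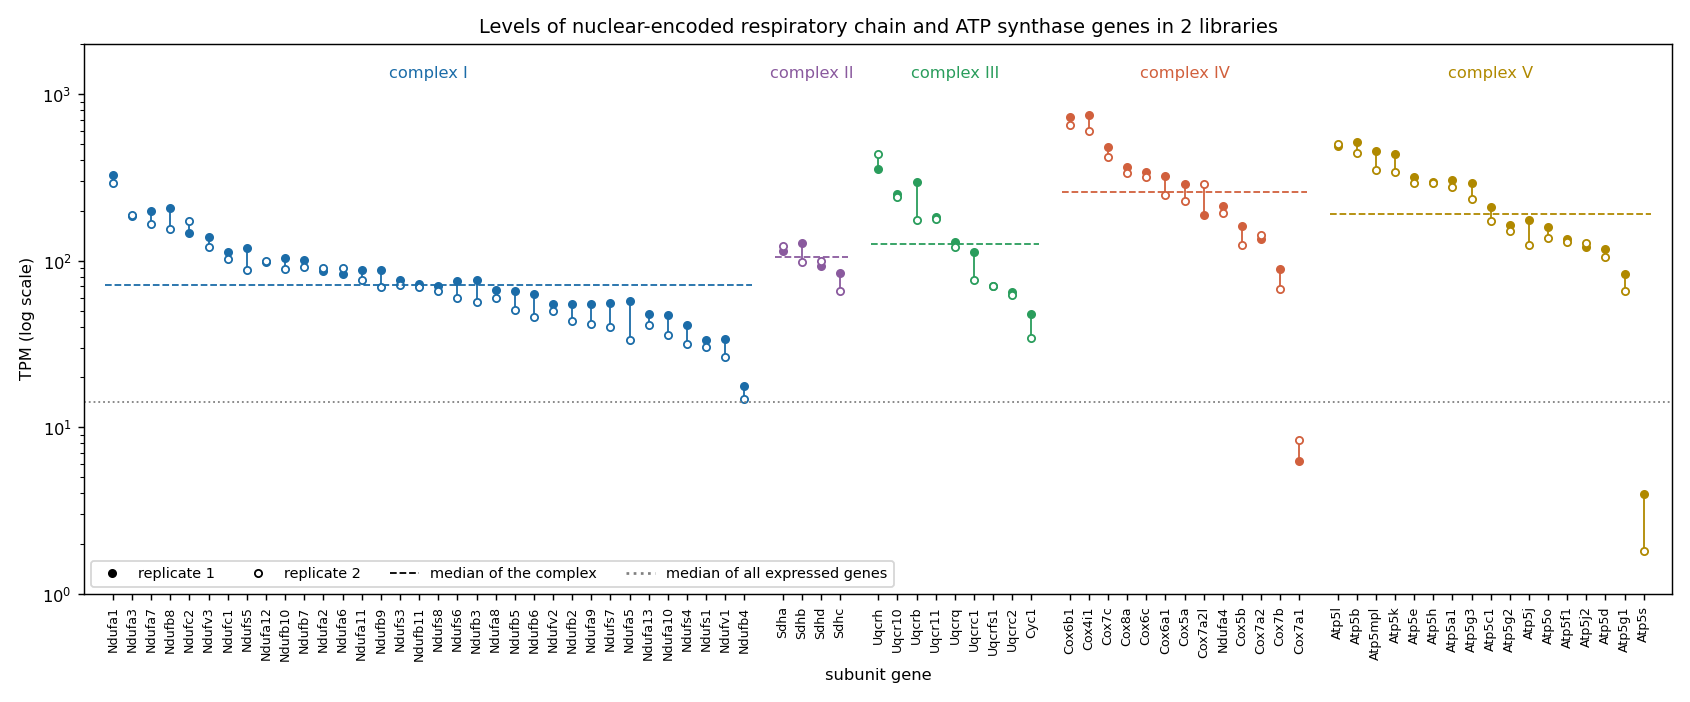
TPM on a log scale (vertical axis) of 77 of the 78 subunit genes at 1 TPM or more, by complex. Filled points are replicate 1, open points replicate 2, dashed lines the median of each complex, and the dotted line the median of all expressed genes, 14.1 TPM. The medians rise from 71.2 TPM in complex I to 258 TPM in complex IV, and Cox7a1 and Atp5s lie below all other members.

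Complex I, the NADH dehydrogenase, had the lowest median of the 5 complexes, 71.2 TPM over 35 members, all of which passed. Its most abundant mRNAs encoded accessory subunits, which surround the catalytic core. Ndufa1 stood at 329 and 294 TPM in replicates 1 and 2, Ndufa3 at 184 and 188 TPM, Ndufa7 at 199 and 166 TPM, and Ndufb8 at 207 and 155 TPM. Ndufa1 was the only one of these that lay apart from the rest, with its lower replicate above every other complex I value. The 28 accessory genes had a median of 80.6 TPM and the 7 core genes, which carry the flavin and iron-sulfur clusters that take electrons from NADH to ubiquinone, a median of 52.4 TPM. The lowest core member by mean was Ndufv1, which binds the flavin that oxidises NADH, at 34.0 and 26.5 TPM. The ranges of the core and accessory genes overlapped, and core transcripts were longer, with a median leading length of 1046 bases against 607. The lowest member, Ndufb4, stood at 17.7 and 14.8 TPM, and its value depends on a pseudogene described further on. Ndufb1-ps, annotated as non-coding and so not a member, stood at 254 and 206 TPM and enters none of these medians.

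Complex II, succinate dehydrogenase, also a citric acid cycle enzyme, spanned a narrow range, with means from 74.7 to 118 TPM over its 4 genes. Sdha, the flavoprotein that oxidises succinate, stood at 114 and 123 TPM. Sdhb, the iron-sulfur subunit, stood at 128 and 97.6 TPM. The membrane anchors were Sdhd at 92.7 and 100.1 TPM and Sdhc at 83.8 and 65.6 TPM. The values of Sdhb overlapped those of Sdha and of Sdhd, while those of Sdhc lay below all 3 in both replicates.

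In complex III, which passes electrons from ubiquinol to cytochrome c, the small subunits were more abundant than the large ones. Uqcrh, the hinge protein, stood at 356 and 436 TPM, Uqcr10 at 252 and 239.98 TPM, Uqcrb at 299 and 174 TPM and Uqcr11 at 183 and 177 TPM. The 5 small subunits had a median of 237 TPM. The core proteins Uqcrc1 (113 and 76.7 TPM) and Uqcrc2 (64.6 and 62.4 TPM) were lower, as was the catalytic iron-sulfur protein Uqcrfs1, at 70.1 and 70.2 TPM. Cytochrome c1, encoded by Cyc1, was the lowest at 47.6 and 34.3 TPM. Every value of a small subunit lay above every value of the core and catalytic subunits, and the small subunits' transcripts were also the shorter, with a median of 445 bases against 1363 or more for each of the other 4.

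Complex IV, cytochrome c oxidase, had the highest median, 258 TPM over its 13 members that passed. Cox6b1, which faces the intermembrane space where cytochrome c docks, stood at 728 and 649.8 TPM. Cox4i1, the regulatory subunit that binds ATP, stood at 754 and 601 TPM. These were the most abundant members of the whole set, with means of 689 ± 55.2 and 678 ± 108 TPM (SD, n = 2), which did not differ beyond their spread. Cox7c followed at 479 and 418 TPM and Cox8a at 367 and 337 TPM. Ndufa4, first described in complex I and since assigned to complex IV, stood at 212 and 192 TPM, near the lower end of the complex's widely expressed forms. Counted with complex I instead, it would leave medians of 72.7 TPM for complex I and 272 TPM for complex IV.

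Complex V, the ATP synthase, had a median of 192 TPM over 17 members. Its most abundant mRNAs by RSEM were Atp5l, a membrane subunit (486 and 499.9 TPM), Atp5b, the catalytic beta subunit (518 and 446 TPM), Atp5mpl, a small proteolipid (453 and 352 TPM), and Atp5k, which helps the enzyme form dimers (439.6 and 340.4 TPM). Atp5a1, the alpha subunit, which is present in the enzyme in the same number as the beta subunit, stood at 303 and 276 TPM. In estimated counts this pair was closer, at 14804 and 19902 for Atp5a1 and 15242 and 18573 for Atp5b. The lowest by RSEM was Atp5s, coupling factor B, at 3.98 and 1.81 TPM from 75 and 67 counts. This was far under every other member of the complex that passed, the next being Atp5g1 at 83.2 and 65.8 TPM.

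Of the tissue-specific forms of complex IV, macrophages showed almost none. Several of its subunits exist as a widely expressed gene and a restricted one, used in striated muscle and brown fat (Cox6a2, Cox7a1, Cox8b), lung (Cox4i2), testis (Cox6b2, Cox7b2, Cox8c) or on hypoxia (Ndufa4l2). Cox4i2, Cox7b2, Cox8b, Cox8c and Ndufa4l2 had 0 counts in both libraries, as did the second Atp5o entry. For Cox4i2 a count of 0 allows at most 0.0394% and 0.0337% of the summed TPM of the Cox4i1 and Cox4i2 pair, for counting error only. For the other 4 the limits lay between 0.0956% and 0.572% of their groups. Cox6b2 had 1 and 2 counts, so Cox6b1 held 99.9% of its pair. Cox6a2 had 16 counts in replicate 1 and 5 in replicate 2, or 1.78 and 0.38 TPM, and Cox6a1, at 320.2 and 249 TPM, held 99.6% ± 0.28 (SD, n = 2) of the pair.

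Cox7a1 was the exception. It stood at 6.29 and 8.41 TPM, from 18 and 36 counts, against 135 and 142 TPM for Cox7a2, so that the restricted form made up 5.01% ± 0.81 (SD, n = 2) of the pair. The source of the Cox7a1 reads was not tested. Markers of striated muscle, brown fat and testis were at or near 0, and no markers of lung or hypoxia were examined. Of 8 skeletal and heart muscle genes 6 had 0 counts in both libraries and the other 2, Myh7 and Tnnt2, had 2 counts in replicate 1 alone. Of 4 brown fat genes Ucp1 and Plin1 had 0 counts, and Cidea and Adipoq had 1 count each, while all 4 testis genes had 0. The coding sequences of the widely expressed and restricted forms were 56.9% to 70.1% identical over aligned bases.

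The c ring of the ATP synthase, the rotor that protons turn, is encoded by 3 genes whose mature proteins are the same and whose import signals differ. Atp5g3 stood at 295 and 234 TPM, Atp5g2 at 164 and 151 TPM and Atp5g1 at 83.2 and 65.8 TPM. Their shares of the summed TPM were 53.1% ± 1.8, 31.9% ± 2.3 and 15.0% ± 0.53 (SD, n = 2), in the same order in both replicates. Over aligned coding bases the 3 genes were 70.7% to 72.1% identical. A stretch of 60 coding bases near the end of each, shown because it separates these genes, reads as follows, with capitals where Atp5g1 or Atp5g2 differs from Atp5g3 (10 and 14 bases, from the GENCODE M21 transcripts).
Atp5g3: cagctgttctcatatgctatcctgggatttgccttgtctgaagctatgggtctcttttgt
Atp5g1: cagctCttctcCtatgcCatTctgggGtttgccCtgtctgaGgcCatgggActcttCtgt
Atp5g2: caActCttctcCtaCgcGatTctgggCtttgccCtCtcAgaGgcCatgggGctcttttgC

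The level of Atp5g2 rested on how reads were divided between it and a processed pseudogene, Gm10175, at chr7:23946646-23947290 (mm10, minus strand), which overlaps no other annotated gene. All 438 coding bases of Atp5g2 occur unchanged in Gm10175, and every 31-base stretch of Gm10175 occurs in a transcript of Atp5g2. Of the 31-base stretches of the leading Atp5g2 transcript, 87.7% occur in Gm10175. The first 60 coding bases, printed because the gene and the copy share them letter for letter, are these.
Atp5g2: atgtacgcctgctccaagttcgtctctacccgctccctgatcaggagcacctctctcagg
Gm10175: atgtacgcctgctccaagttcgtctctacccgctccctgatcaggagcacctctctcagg
The authors deposited 2 quantifications of the same reads, in the column layouts of RSEM and of kallisto. RSEM was used for the values above unless kallisto is named. The quantifications divided these reads in opposite ways. RSEM gave Atp5g2 1658 and 2242 counts and Gm10175 322 and 576, so the copy held 16.2% and 20.5% of the sum. The kallisto tables gave Atp5g2 102 and 171 counts and Gm10175 1927 and 2789.7, so there the copy held 95.0% and 94.2%. The sum was nearly the same in both: 1980.0 and 2818 counts by RSEM, 2029 and 2961 by kallisto, which is 1.02 and 1.05 times as many. In TPM, Atp5g2 alone was 164 and 151 by RSEM but 7.80 and 7.90 by kallisto.

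With the pseudogenes that lie wholly within a gene added to it, the quantifications gave like c ring shares. By RSEM the shares of Atp5g1, Atp5g2 and Atp5g3 were then 13.8%, 37.5% and 48.8%, and by kallisto 13.1%, 40.2% and 46.7%. Taken alone, the genes had kallisto shares of 21.2%, 3.07% and 75.7%. Atp5g3 had the largest share in each of the 4 ways of counting, in both replicates. Atp5g2 was second in all except kallisto's genes alone, where Atp5g1 was.

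**Figure D2:**
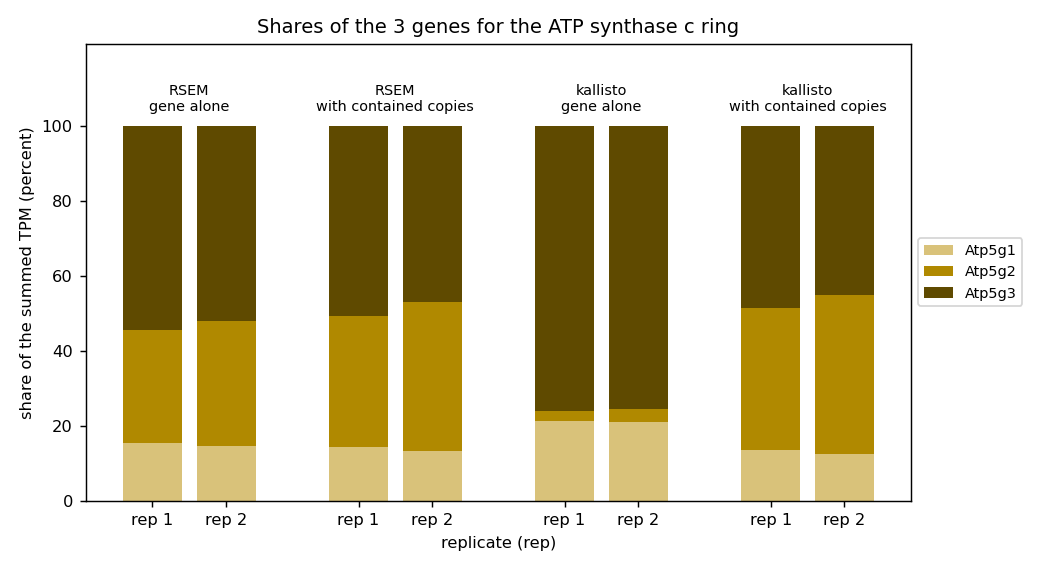
Share of the summed TPM (percent, vertical axis) of Atp5g1, Atp5g2 and Atp5g3 in each replicate, by quantification, with each gene alone or with the pseudogenes it wholly contains added. Atp5g2 stands at 3.07% on average in kallisto's genes alone and lies at 37.5% and 40.2% when its copies are added.

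Ndufb4, the lowest complex I member, has such a copy as well. Ndufb4c lies at chr15:73809507-73809896 (mm10, minus strand), in an intron of Mroh5 on the same strand, and holds all 387 coding bases of Ndufb4 unchanged, with no 31-base stretch of its own. It was given 584 and 677 counts by RSEM, against 274 and 338 for Ndufb4, so that 68.0% and 66.7% of the sum went to the pseudogene. The kallisto tables divided the reads alike, with 66.4% and 64.6% in Ndufb4c. The TPM of Ndufb4 and Ndufb4c summed to 226 and 176, but this adds values over unlike lengths, a leading transcript of 971 bases and a copy of 390 bases. At the TPM per count of Ndufb4 alone, the summed counts of 858 and 1015 came to 55.3 and 44.5 TPM, below the median of complex I. Both begin with the coding bases below, shown because the reads that cover them fit either locus.
Ndufb4: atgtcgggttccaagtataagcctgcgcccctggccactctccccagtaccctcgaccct
Ndufb4c: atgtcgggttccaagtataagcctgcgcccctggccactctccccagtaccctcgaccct

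Wholly contained copies were few among the members, and partial sharing was more frequent. Besides these, Gm10231 is contained in Atp5g2 (0 counts), Gm10221 in Atp5l (10.9 and 8.28 counts) and Gm12338 in Cox7c. Gm12338, at chr11:75599763-75599954 (mm10, minus strand) in an intron of Pitpna on the opposite strand, was listed at 279 and 268 TPM by RSEM, from 50.6 and 93.6 counts, and at 0 by kallisto. In all, 60 members share at least one 31-base stretch with another gene, and 10 share 50% or more of their leading transcript. Among the 10 is the second Atp5o entry (94%), which had 0 counts. Neither this sharing nor the exon overlaps below were counted over all genes, so whether the members differ from other genes was not tested. The median member shares 5.44%. Atp5l shares 85.4% over 20 other genes, Atp5g1 67.3% and Uqcrb 58.2%. For these 3 the quantifications gave almost all reads to the member: Gm10039, which holds 62.5% of Atp5g1, had 4.65 and 4.43 counts by RSEM and 0 by kallisto, and Gm2962, a copy of Uqcrb, had 5 and 6 counts. Exons of 29 members overlap those of another gene, 26 of them on the opposite strand. Whether the counting used strand is not given in the sources used here, so reads of such pairs may not have been separated.

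Beyond Atp5g2, kallisto gave lower TPM throughout. All 78 members that passed were lower in kallisto TPM, by a median of −0.41 on the log2 scale, beside −0.23 over all expressed genes. At 1.5-fold or more apart were 15 members, 19.2%, all lower by kallisto, where 6.99% of 10285 expressed genes were that far apart and 5.56% were lower. Atp5g2 was the 1 member 2-fold apart, where 3.86% of expressed genes were. The 1.5-fold count rested on the replicate: it was 6 in replicate 1 alone (background 6.17%) and 27 in replicate 2 alone (background 9.21%). After Atp5g2 the members furthest apart were Ndufc1 (113 and 102 TPM by RSEM, 61.2 and 48.7 by kallisto), Atp5k, Cox7c, Cox6b1 and Atp5mpl, with log2 ratios from −0.96 to −0.74. Of these 5 all but Cox7c have leading transcripts of 315 to 371 bases. With each ratio centred on the median gene, an alternative chosen after seeing the data, 2 members were 1.5-fold apart, where 5.79% of all expressed genes were.

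**Figure D3:**
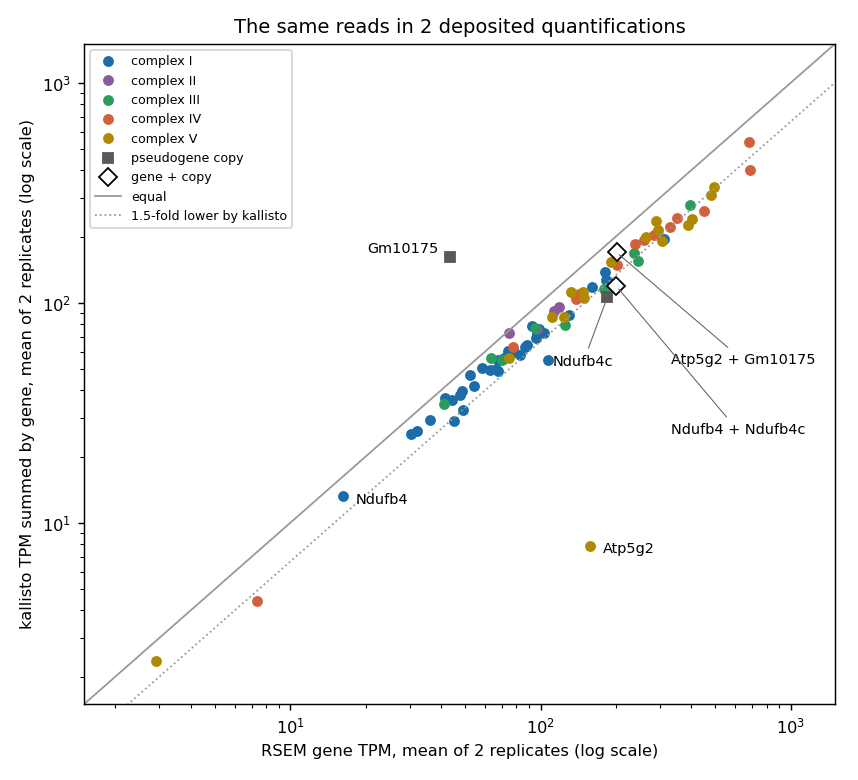
Mean TPM by RSEM (horizontal axis) and by kallisto (vertical axis), both on log scales, for the 78 members by complex, with 2 pseudogene copies (squares) and the sums of gene and copy (diamonds). Every member lies below the line of equality, and Atp5g2 lies far below it at 7.85 TPM by kallisto, while its sum with Gm10175 lies with the other members.

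The 2 replicates differed little in these genes. Ratios were taken from counts scaled by TMM, a library-size correction, for the 77 members with a mean count of 50 or more. None was 2-fold apart, where 3.99% of 10445 genes were. With a mean count of 10 or more required instead, 1 member was, the sparse Cox6a2, where 8.1% of 12666 genes were. At 1.5-fold apart were 3 members (3.90%), where 14.6% of genes were. Of these, 1 was higher in replicate 2, as were 7.46% of all genes, and 2 were lower, as were 7.14%. The median absolute log2 ratio was 0.16 for members and 0.24 for all genes. The spread between replicates over 12178 genes, as the edgeR common dispersion, corresponded to a coefficient of variation of 21.5%. The direction was slightly towards replicate 1: 47 of 77 members (61.0%) were lower in replicate 2, where 46.5% of all genes were, and the median log2 ratio was −0.07 against 0.03. On the TPM scale, where the median gene moves to −0.09, 64 of 77 members (83.1%) were lower, beside 60.9% of all genes, and the members' median was −0.20.

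Cox7a2l, classed here as a factor for supercomplexes of complexes III and IV, was the furthest higher in replicate 2. Cox7a2l had 3365 and 7571 counts, 188 and 288 TPM and a log2 ratio of 0.74. It was the only member 1.5-fold higher. Uqcrh followed at 0.42, then Ndufc2 (147 and 173 TPM, 0.36) and Ndufa6 (83.3 and 89.8 TPM, 0.25), both accessory subunits of complex I. Furthest lower was Uqcrb, the ubiquinone-binding small subunit of complex III, with 1725 and 1484 counts and a log2 ratio of −0.65. Atp5s (−0.59), Ndufa5 (57.0 and 33.4 TPM, −0.52) and Uqcrc1 (3446 and 3422 counts, −0.44) came next. Uqcrh and Uqcrb, small subunits of the same complex, thus lay at opposite ends. Ndufa4 (−0.02) and Cox4i1 (−0.20) lay within the middle 50% of all genes, from −0.21 to 0.26. By complex the medians were −0.07 for I, −0.03 for II, −0.01 for III, −0.07 for IV and −0.09 for V.

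The libraries differed by far more in granulocyte genes and in 3 of 5 cycling genes, which were 2-fold or more apart. Of 7 macrophage genes all passed 1 TPM in both, and 0 were 2-fold apart, with a median log2 ratio of 0.17. They summed to 20144 and 26071 TPM, of which Lyz2 alone held 13518 and 19283 TPM. Of 8 granulocyte genes 4 passed, with a sum of 517 TPM in replicate 1 and 67.2 in replicate 2, and Ly6g, which defines neutrophils, had 4 and 0 counts. Of 5 cycling genes 4 were lower in replicate 2, while Mki67 was higher, at 33.6 and 41.6 TPM. The part of these cells in the members' small differences was not tested.

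**Figure D4:**
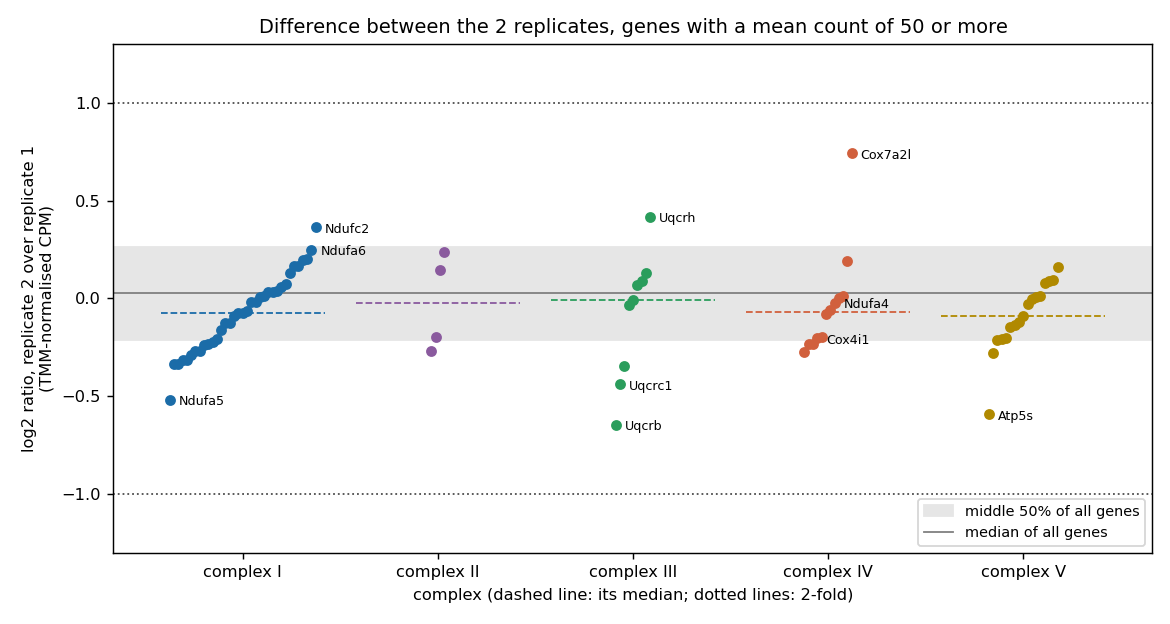
Log2 ratio of replicate 2 over replicate 1 (vertical axis, TMM-normalised CPM) for 77 members by complex, each point a gene, with dashed medians. The grey band holds the middle 50% of all genes, from −0.21 to 0.26, and the dotted lines mark 2-fold. Every point lies within 2-fold, from Uqcrb at −0.65 to Cox7a2l at 0.74.

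Most members used 1 dominant transcript. Over the 67 members at 20 TPM or more with several annotated transcripts, the median share of the leading one was 96.8%, against 82.1% over 3930 such genes, and it held over 90% in 45 members (67.2%, beside 40% of all genes). The 6 lowest were Sdhc, Ndufb5, Cox6b1, Ndufs4, Atp5j and Ndufv2. Sdhc used a 3171-base coding transcript (46.8% and 46.6%) and an 815-base one (40.4% and 47.9%) in like amounts, and kallisto put the shorter first at 53.9% and 58.1%. For Ndufb5 the replicates differed: its 1079-base transcript held 36.5% in replicate 1 and 68.1% in replicate 2, and its 625-base transcript 36.8% and 16.9%. Ndufv2, a core subunit, likewise changed order by RSEM, with 65.4% and 47.6% in a 927-base and 34.5% and 52.0% in a 1697-base transcript. For both, the first-named transcript moved the same way by kallisto, with 27.8% and 44.6% and with 70.2% and 62.4%. For Ndufv2 kallisto kept the order, with the 1697-base transcript second in both replicates at 28.3% and 35.6%.

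In 3 of the 78 members that passed 1 TPM, the leading transcript was not annotated as coding. The same count was not made over all expressed genes, so no background is given. Cox6b1 had the highest mean TPM by RSEM, but by kallisto it stood at 454 and 351 TPM, below Cox4i1 at 625 and 449 TPM. Its 369-base transcript, annotated as a retained intron, held 50.6% and 54.4% by RSEM, and its 618-base coding one 48.7% and 45.2%. By kallisto the coding transcript led, with 66.1% and 64.8%. For Ndufs4, which is needed late in complex I assembly, a 571-base transcript annotated for nonsense-mediated decay held 58.7% and 53.3%, and the 1698-base coding one 32.1% and 40.2%. For Ndufa5, an accessory complex I subunit, the leading 453-base transcript, annotated as processed, held 67.1% and 57.2% by RSEM. Atp5j, of the peripheral stalk, had its 809-base coding transcript first at 51.8% and 60.7%, and a 526-base retained intron at 39.4% and 22.5%, which stood at 20.3% and 2.62% by kallisto. The gene TPM of these members includes such transcripts.

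The other genes of the pathway stood lower or higher by kind. The 13 subunits encoded by mitochondrial DNA summed to 64736 and 51977 TPM, above the sum of the nuclear set in both replicates, and 12 of 13 passed 1 TPM in both, led by mt-Atp8 (37771 and 30698 TPM), mt-Co1 (8848 and 8494 TPM) and mt-Nd1 (3773 and 2446 TPM). The order rested on the quantification: kallisto gave mt-Atp8 8126 and 6034 TPM and mt-Co1 8005 and 7209 TPM. The overlapping gene mt-Atp6, chosen after its values were seen, was listed at 64.4 and 80.1 TPM by RSEM but 5443 and 3832 by kallisto. The gene mt-Co3, likewise chosen, was listed at 0.06 and 111 TPM by RSEM but 1293 and 1462 by kallisto. In TMM ratios from RSEM counts 7 of the 13 were lower and 6 higher in replicate 2, with a median of −0.28. This split rested on the quantification as well. Among the 6, mt-Co3 had 0.73 and 1840 counts and mt-Co2 139 and 1164. In kallisto TPM, another scale, mt-Co3 alone of the 6 was higher in replicate 2, and mt-Co2 stood at 263 and 199. The median assembly factor of each complex stood below the median subunit of that complex. All 15 for complex I passed, at a median of 5.38 TPM, and Ndufaf8 (24.1 and 18.7 TPM), Foxred1 and Ndufaf2 were the highest. For complex IV 20 of 21 passed, at a median of 9.73 TPM, the highest being the copper chaperone Cox17 (260.3 and 203 TPM), Coa5 and Coa3. For complexes II, III and V, 3 of 4, 5 of 6 and 3 of 3 passed, with medians of 18.5, 19.4 and 9.92 TPM. The highest in each were Sdhaf2 at 27.2 TPM, Uqcc2 at 66.9 TPM and Tmem70 at 15.8 TPM.

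The 13 citric acid cycle genes all passed, at a median of 60.2 TPM, the highest being malate dehydrogenase Mdh2 (119 and 102 TPM) and citrate synthase Cs (97.8 and 97.9 TPM). None was 2-fold apart between the replicates. The cytochrome c gene Cycs, the mobile carrier between complexes III and IV, stood at 29.5 and 27.8 TPM, below the lowest complex III member, and the testis form Cyct had 0 counts. Ndufab1, the acyl carrier protein that complex I shares with fatty acid synthesis, stood at 65.3 and 34.9 TPM. Of 11 genes that regulate mitochondrial biogenesis 10 passed, at a median of 9.81 TPM. Highest were Gabpb1 (21.9 and 22.0 TPM), the partner of the ETS-family factor encoded by Gabpa (16.7 and 16.9 TPM), Gabpa itself and the nuclear receptor gene Esrra (16.8 and 15.3 TPM). The coactivator gene Ppargc1a had 0 counts in both, where 3 counts would be 0.0902 and 0.0597 CPM. Ppargc1b stood at 1.26 and 2.75 TPM and Pprc1 at 11.5 and 8.09 TPM. Of the 10 regulators with a mean count of 50 or more, 1 was 2-fold apart between the replicates, where 3.99% of all genes were. It was Ppargc1b, with 96 and 308 counts and a log2 ratio of 1.25.

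The promoters of the members were searched for motifs of factors known to act on genes of this pathway. Any link between the motifs and the members' levels was not tested, and the comparison windows were not matched for level. RefSeq windows of 300 bases (GRCm38.p6, from 250 before to 50 after the start) were matched for 68 of 85 symbols, 65 of which passed 1 TPM. Both strands were read. The motif of the respiratory factor NRF1 (GCGCA, any base, GCGC) occurred in 16 of 65 windows (24.6%), in 12.0% of 7799 windows of expressed coding genes and in 4.60% of all 32851 windows. It was found in 7 of 31 windows of complex I, 2 of 3 of complex II, 1 of 5 of complex III, 1 of 11 of complex IV and 5 of 15 of complex V. The ETS motif CCGGAAG, read by Gabpa, occurred in 23.1%, close to the 21.2% of expressed genes, and in 8.86% of all windows. The YY1 motif AAGATGGCG occurred in 6 windows (9.23%), against 3.95% and 1.40%. All 6 began 22 to 35 bases after the start, and 5 of them were in complex I genes, which supplied 31 of the 65 windows. The YY1 motif contains the letters ATG, and whether its matches cover start codons was not tested. Both NRF1 and ETS motifs were in 6.15% of members and 2.55% of expressed genes. GGGCGG, the GC box, was in 40% of members and 67.0% of expressed genes, and CCAAT in 43.1% and 38.6%. TATAAA was in 7.69% and 6.72%, and the interferon-response core (GAAA, any 2 bases, GAAA) in 3.08% and 3.60%. Each motif was searched independently, so letters that overlap could count for more than 1 of them, and the shares are descriptions with no test.

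The windows below, from RefSeq, are those of the most abundant member with each of the first 3 motifs whose window lies within 100 bases of its leading transcript's start, read 5′ to 3′ on the gene's strand, with matches in capitals. On the gene's strand both ETS matches read CTTCCGG, the reverse complement of the motif. Atp5k (chr5:108434350-108434649, minus strand) has an NRF1 match 50 bases before the start and an ETS match 12 bases after it. Cox6b1 (chr7:30626065-30626364, minus strand) has an ETS match 28 bases before the start. Ndufc1 (chr3:51408906-51409205, minus strand) has a YY1 match 22 bases after it.
Atp5k: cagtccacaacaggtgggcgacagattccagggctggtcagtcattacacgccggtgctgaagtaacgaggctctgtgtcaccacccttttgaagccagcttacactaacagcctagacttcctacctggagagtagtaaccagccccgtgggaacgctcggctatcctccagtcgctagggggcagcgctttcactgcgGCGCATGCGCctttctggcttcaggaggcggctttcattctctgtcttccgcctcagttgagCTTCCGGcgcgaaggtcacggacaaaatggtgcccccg
Cox6b1: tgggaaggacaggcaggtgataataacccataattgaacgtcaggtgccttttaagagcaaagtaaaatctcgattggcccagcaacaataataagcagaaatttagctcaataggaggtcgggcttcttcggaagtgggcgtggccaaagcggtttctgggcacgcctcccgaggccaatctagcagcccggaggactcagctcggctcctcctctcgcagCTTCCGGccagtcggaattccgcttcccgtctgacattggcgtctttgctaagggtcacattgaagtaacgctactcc
Ndufc1: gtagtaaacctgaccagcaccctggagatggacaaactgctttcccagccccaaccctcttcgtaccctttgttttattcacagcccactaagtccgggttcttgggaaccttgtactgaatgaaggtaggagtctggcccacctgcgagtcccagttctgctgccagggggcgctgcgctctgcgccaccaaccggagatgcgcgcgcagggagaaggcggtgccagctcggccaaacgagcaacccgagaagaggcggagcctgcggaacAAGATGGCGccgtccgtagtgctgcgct

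**Figure D5:**
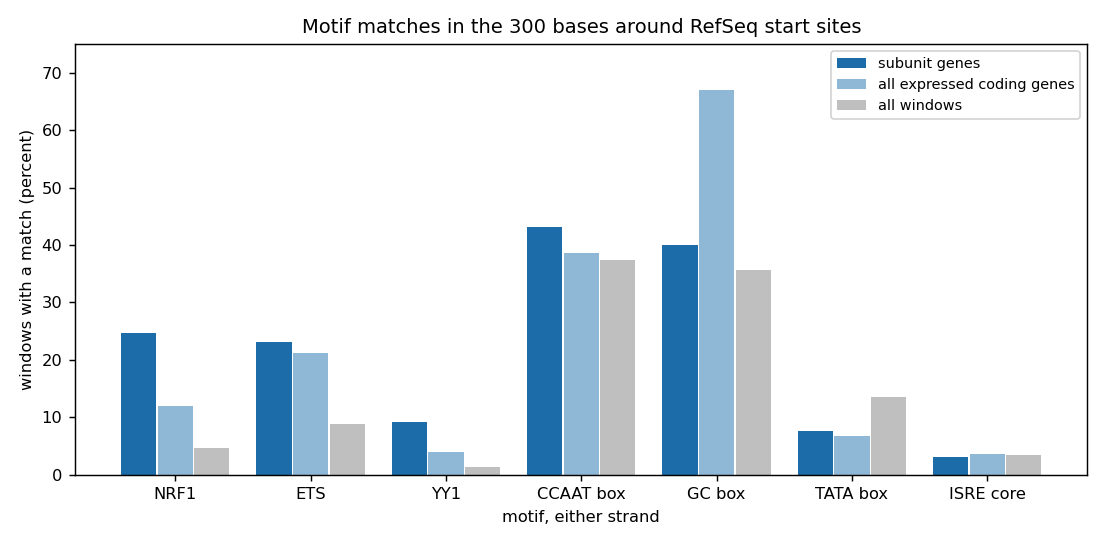
Percent of 300-base promoter windows with a match on either strand (vertical axis) for 7 motifs, among 65 subunit genes, 7799 expressed coding genes and all 32851 windows. The bars of subunit genes exceed those of expressed genes for NRF1 (24.6% and 12.0%) and YY1 (9.23% and 3.95%) and fall below them for the GC box (40% and 67.0%).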

How the data were processed

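The 2 polyadenylated RNA libraries of 1 group entered all values. Per the file headers, the authors deposited a gene table with expected counts and TPM and a transcript table with TPM and each transcript's percent of its gene, both in RSEM's column layout, and a transcript table with estimated counts and TPM in kallisto's layout. Assembly mm10 is per the labels, and the transcript identifiers match GENCODE M21. Program versions and the strand setting are not given in the sources used here.

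Entries that name no gene (0.141% and 0.134% of counts) were left out. Expected counts were rounded and scaled by TMM with edgeR 4.0.16 (R 4.3.3), with DESeq2 1.42.0 size factors as an alternative, and kallisto values were summed by gene. Ratios needed a mean count of 50, levels 1 TPM in both replicates and transcript shares 20 TPM. The ratio steps were tested on simulated data. Floors are 3 counts. They allow for counting error alone, as the reads carry no molecular identifiers. Python 3.11.15, pandas 2.3.3, Biopython 1.88 and matplotlib 3.10.9 did the rest.

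The members and lists were chosen with earlier results of these data known. Named genes are, in each complex, the 4 of highest mean TPM and the lowest at 1 TPM or more, all of complex II, paralog groups, the 4 furthest higher and lower in replicate 2, the 6 furthest apart between quantifications, the 6 with the lowest leading share, Ndufa4, Cox4i1 and the 3 highest of other lists, and others serve as comparisons named for their role. Some genes that the rule names are not reported here by name, and all counts and medians include them.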

Additional observations from a re-analysis of the deposited data

How the results depend on the processing

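No paired analysis was possible because the labels give 1 group, so no groups share replicate numbers. The count of 78 members at 1 TPM, the median log2 ratio (−0.20 to −0.06 over its alternatives) and the 0 members 2-fold apart kept their side, except that 1 member, Cox6a2 with 16 and 5 counts, was 2-fold apart at a mean count of 10 or more, where 8.1% of genes were. By kallisto, levels were lower: 77.4 TPM for the median member (96.6 TPM by RSEM with no filter), 8930.2 TPM summed, and 55.1, 84.2, 79.2, 194 and 154 TPM for complexes I to V, so complex II passed complex III. Kallisto shares were 99.2% for Cox6a1, 96.0% for Cox7a2 and 96.1% for the median leading transcript. Posterior mean TPM, which adds a prior, gave 99.98% for Cox4i1, 99.7% for Cox6b1, 99.9% for Cox7b and 99.8% for Cox8a and Ndufa4. The c ring shares of Atp5g1, Atp5g2 and Atp5g3 were 21.2%, 3.07% and 75.7% by kallisto and 13.8%, 37.5% and 48.8% by RSEM with contained copies. The count of 15 members 1.5-fold apart between quantifications was 1 at 2-fold, 2 after centring, and 6 and 27 with either replicate left out. Without either replicate the medians were 69.6 to 76.7 TPM for complex I, 98.8 to 103 for II and 249 to 288 for IV. Of the members' own TPM, 64 moved by more than the replicate SD by kallisto and 8 by posterior mean TPM; the cause was not tested.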
